A study of Mus musculus with 15 samples.

Results

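The copines are a family of cytosolic calcium-dependent membrane-binding proteins. They were examined here in spinal motor neurons of 5 mouse motor pools. A motor pool is the group of motor neurons that supplies one muscle. Family members were taken as the rows of the deposited gene table whose symbol was Cpne1 to Cpne9, which gave 9 of 36814 genes. All 9 passed the filter on low counts that left 14340 genes for testing. At the front of the lower leg, TA stands for the tibialis anterior pool and EDL for that of the extensor digitorum longus. PL is the pool of the peroneus longus at the side, GS that of the gastrocnemius in the calf, and IF that of the small muscles within the foot, which are several muscles treated as 1 pool. All animals were wild-type mice of postnatal day 6 whose muscle had been injected with the fluorescent retrograde tracer CTB-Alexa at day 4, so each of the 5 groups carried the tracer and differed in the muscle injected. There were 3 libraries per pool and 15 in all. Each library held RNA of 30 to 40 laser-captured cells from 2 to 5 animals, and nothing in the labels ties a library to particular animals. A p-value therefore measures the spread between such pooled libraries. In pooled material, fewer cells with a transcript and less transcript per cell cannot be told apart.

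Total gene counts ran from 4417114 to 8488368 per library. PL 2 and PL 3 stood apart with the fewest genes detected, 11019 and 10548, against up to 17321 in IF. All 6 motor neuron markers (Chat, Slc5a7, Prph, Nefh, Mnx1 and Ret) had reads in every pool. Astrocyte markers (6 genes) were also read in every pool, at a summed level of 1079 to 1822 CPM. CPM here stands for a gene's reads in every 1000000 counted in a library, where the total was first adjusted for composition by TMM scaling. PL 2 had the highest summed endothelial and oligodendrocyte markers, 681 and 1464 CPM, against at most 73.7 and 732 CPM in any other library.

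Copines carry tandem C2 domains at the amino end, which bind phospholipid when calcium rises, followed by a domain related to the A domain of von Willebrand factor that binds other proteins. They move from cytosol to plasma membrane with rising calcium and are studied as links between calcium signals and membrane traffic or receptor signalling. Cpne6, once called N-copine, is the neuronal member best known from dendritic spines. Cpne1 and Cpne3 are expressed in many tissues, and Cpne4 has been described in retinal ganglion cells.

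Cpne4 was the member whose level separated the pools, so the sequence just before its annotated starts is shown first. In the deposited table (mouse build mm9) Cpne4 spans chr9:104449616-104936875 on the plus strand. RefSeq windows of build GRCm38.p6, another build than that of the counts, were at hand for 6 of the 9 copines, and Cpne4 had 2 alternative starts. The first run covers chr9:104569405-104569482 on the plus strand. Another 172 bases of that window before the start lie in or beyond an annotated exon and are not printed. The second run covers chr9:104587808-104588057 on the plus strand and is the whole 250 bases before that start. Capitals mark the only match to any of 4 motifs searched on both strands.
Cpne4 upstream start: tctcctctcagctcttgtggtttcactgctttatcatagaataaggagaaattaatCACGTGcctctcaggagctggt
Cpne4 downstream start: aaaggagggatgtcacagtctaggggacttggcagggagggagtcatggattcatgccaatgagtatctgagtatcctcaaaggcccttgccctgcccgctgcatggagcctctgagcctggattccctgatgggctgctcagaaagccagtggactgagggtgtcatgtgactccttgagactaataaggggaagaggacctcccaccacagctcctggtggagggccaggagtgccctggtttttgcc
The match, CACGTG, is the core of an E-box and its own reverse complement. It stood in the 250 bases before the start of 6.02% of 32851 RefSeq windows and in 1 of the 7 copine windows. The other motifs were ATGCAAAT, the octamer bound by POU factors, AGGTCA, a nuclear receptor half-site, and TAATTA, a homeodomain core. They occurred in 1.6%, 14% and 4.84% of all windows and in none of the copine windows. A match is a string of letters in a window and does not show binding. The windows also differed in CpG dinucleotides. Cpne2, Cpne5 and Cpne8 held 32, 27 and 28 of them in 250 bases, Cpne1 and Cpne9 held 11 and 7, and the windows of Cpne4 held 13 and 1, against a median of 6 over all windows.

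Across genes, levels were compared with the authors' RPKM, which divides by gene length. Cpne6 was the most abundant copine in all 15 libraries, with 26.6 to 60.6 RPKM. Its median RPKM exceeded that of 96.9% of the tested genes. Cpne6 made up 63.7% to 93.3% of the summed RPKM of the family in the 12 libraries of TA, EDL, PL and GS. In IF its share was 55.3%, 50.7% and 51.7%, and Cpne4 held another 26.2%, 29.6% and 30.5%. Elsewhere the share of Cpne4 was at most 1.06%. The summed RPKM of the 9 copines was 93.8 ± 2.03 (SD, n = 3) in IF, 70.2 ± 14.5 in EDL, 60.8 ± 10.3 in GS, 52.9 ± 19.5 in PL and 45.2 ± 11.8 in TA. Without Cpne4 the IF sum was 66.9 ± 3.6 and lay within the range of the EDL libraries (55.7 to 84.3). RPKM is not adjusted by TMM, and the order of the pools for Cpne6, the largest part of each sum, changed with the scale. Its mean was 41.8 RPKM in PL and 49.4 RPKM in IF, but 482 CPM in PL and 334 CPM in IF. No order of the pools was therefore drawn from the sums. Cpne1 was among the 3 most abundant copines in 14 libraries and Cpne3 in 10. Cpne7 and Cpne9 had the lowest median levels apart from Cpne4, at 0.177 and 0.158 RPKM.

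**Figure D1:**
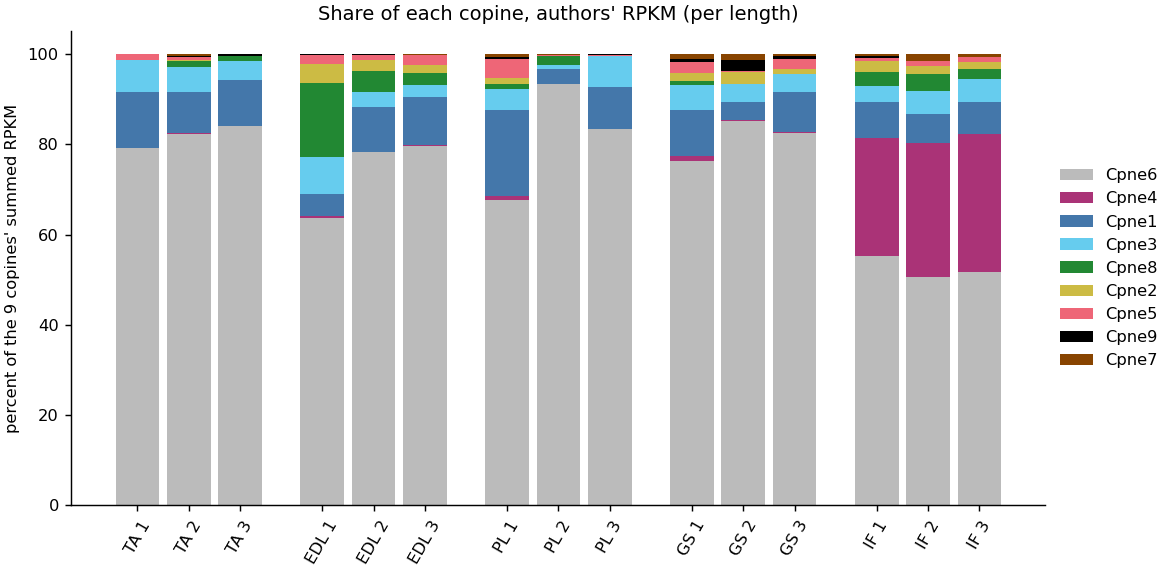
Percent of the summed RPKM of the 9 copines (vertical axis) held by each copine (colours) in each of the 15 libraries (bars, grouped by pool). Cpne6 fills most of every bar, and Cpne4 is a visible share in the 3 IF libraries, at 26.2% to 30.5%.

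Cpne4 was high in motor neurons of the intrinsic foot muscles and near 0 in those of the 4 leg muscles. In IF it reached 196, 234 and 223 CPM, from 1922, 1873 and 1540 reads. In TA it was 0, 0.361 and 0 CPM, in EDL 4.29, 0.339 and 1.25 CPM, in PL 5.2, 0 and 0 CPM, and in GS 5.12, 1.53 and 0.163 CPM. The 3 IF libraries did not overlap any other library: the lowest IF value was 37.6 times the highest value elsewhere, that of PL 1. Of the 9 copines, Cpne4 alone had all 3 IF libraries above the other 12, a pattern held by 1.88% of the tested genes. A library with no read allows up to 3 counts, which is 0.509 to 0.958 CPM in the 4 libraries with no Cpne4 read (TA 1, TA 3, PL 2 and PL 3), for counting error only.

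The mean level of Cpne4 in IF (218 ± 19.7 CPM, SD, n = 3) was 95.8 times that in GS, the next pool. It was 111 times that in EDL and 126 times that in PL. By reads per depth the ratio to PL was 75.9, with an exact 95% counting interval of 57.2 to 103. Counting intervals of this kind cover counting error only and leave out the spread between libraries. These ratios rest on 1 library per pool: without GS 1 the ratio to GS was 257, without EDL 1 that to EDL was 273, and PL 1 held all 48 reads of PL. The leave-out of these libraries was chosen after seeing the data. TA had only 2 reads over its 3 libraries. By reads per depth the ratio of IF to TA was 1846, with an exact 95% counting interval of 511 to 15249. The 4 leg pools could not be ordered: their libraries overlapped for every neighbouring pair, GS with EDL, EDL with PL and PL with TA. On the per-length scale Cpne4 averaged 27 ± 1.61 RPKM in IF, above 92.6% of the tested genes in that pool, beside 49.4 ± 3.25 RPKM for Cpne6.

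**Figure D2:**
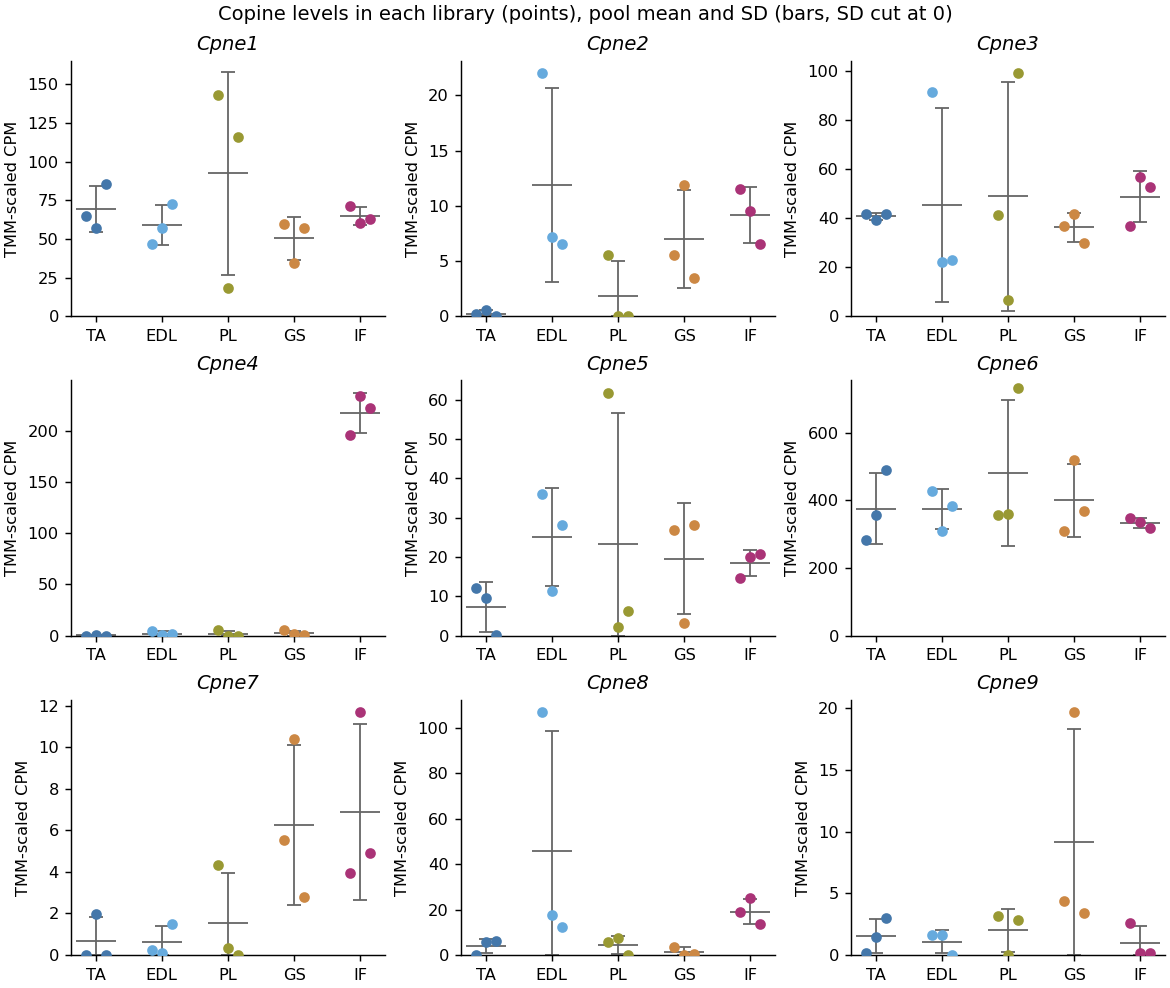
TMM-scaled CPM (linear axes from 0, each panel on its own scale) of the 9 copines in 15 libraries (points), with the mean and SD of the 3 libraries of a pool. Cpne4 lies at 196 to 234 CPM in IF and at or below 5.2 CPM elsewhere, while Cpne6 lies between 282 and 732 CPM in all libraries.

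A single edgeR quasi-likelihood fit over the 15 libraries was used for all tests, with Benjamini-Hochberg adjustment over the 14340 genes of each comparison. In the test of any difference among the 5 pools, Cpne4 was the 1 copine called (edgeR adjusted p = 0.00152). The test called 188 genes, 1.31% of those tested. Against the mean of the other 4 pools, Cpne4 was higher in IF by a log2 fold change of 7.70 ± 0.88 (SE, edgeR adjusted p = 8.78e-05), and 158 genes (1.1%) were called in that comparison. Without PL 2 and PL 3, the log2 fold change was 7.36 and the edgeR adjusted p 0.0001. Both calls held in each of 23 alternatives, with adjusted p up to 0.0106 for any difference and up to 0.000763 for IF against the others.

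Single pairs were less certain, and the 4 pairs share the IF libraries. The log2 fold change of TA against IF was -10.64 ± 1.87 (SE, edgeR adjusted p = 0.00777), and 0.628% of genes were called. That of PL against IF was -6.82 ± 1.52 (edgeR adjusted p = 0.0381), with 0.9% of genes called. For EDL against IF the value was -6.78 ± 1.51 and did not pass (edgeR adjusted p = 0.0983, 0.202% of genes called). For GS against IF it was -6.56 ± 1.50 and did not pass either (edgeR adjusted p = 0.152, 0.126% of genes called). The unadjusted p of these last pairs were 0.000274 and 0.000349 in edgeR, close to the 0.000266 of PL against IF. The TA call was lost without TA 1 or TA 3, at an edgeR adjusted p of up to 0.0541. The PL call was lost in 9 of 24 alternatives, among them leaving out TA 2, EDL 3, PL 2, GS 2 or any 1 IF library. Its log2 fold change was -13.53 without PL 1 and -5.40 without PL 2 and PL 3 (edgeR adjusted p = 0.00229 and 0.57). That of EDL was -8.10 without EDL 1, that of GS -8.00 without GS 1, and that of TA -13.59 without TA 2. Without PL 1 or TA 2 the pool has no read left, and the fitted size then depends on the prior count of the fit. The EDL call was gained in 9 alternatives and the GS call in 8, each of them including the fits without PL 1, without PL 2 and without PL 3.

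**Figure D3:**
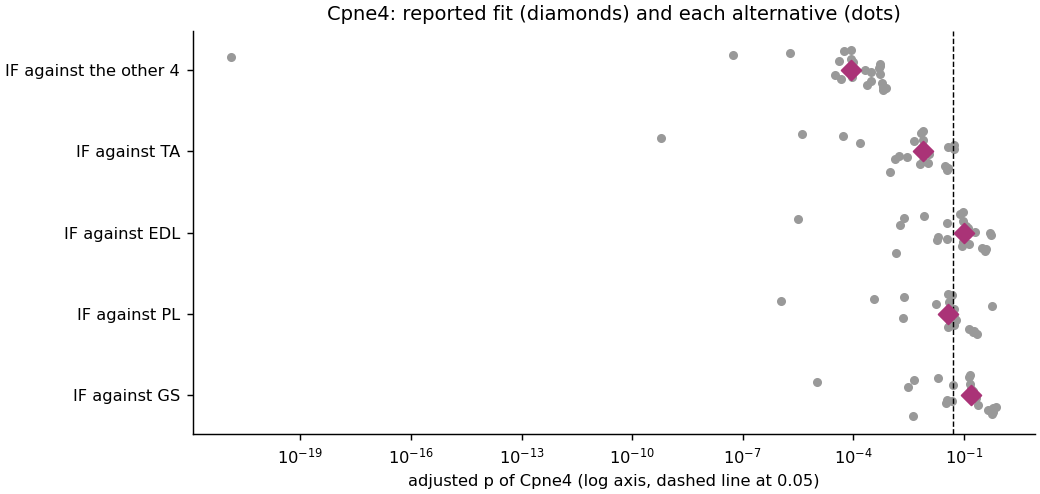
Adjusted p of Cpne4 (horizontal log axis) for IF against the other 4 pools and against each single pool, in the reported edgeR fit (diamonds) and in each alternative (dots), with a dashed line at 0.05. All dots of the first row lie left of the line, and those of the TA, EDL, PL and GS rows lie on both sides of it.

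The authors' deposited lists name, for 2 pools at a time, the genes they found higher in 1 of them, and gave Cpne4 in 4 of 16 lists, all of them IF lists. In the authors' deposited table the ratio of IF over TA was 1799, with an adjusted p of 4.24e-24 from the authors' test. The ratios in the authors' deposited table were 110.4 over EDL, 95.15 over GS and 129.1 over PL, with adjusted p of 2.07e-31, 6.26e-23 and 0.0102 from the authors' test. No other copine was in any of these lists of the authors.

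Reads of Cpne4 outside IF were unevenly spread. Of the 145 reads in the 12 leg libraries, 120 (82.8%) came from EDL 1, PL 1 and GS 1, and 4 of the 12 libraries had none. Markers of some other cells also differed in IF. The summed level of 6 oligodendrocyte markers was 149 to 173 CPM in IF and 226 to 1464 CPM in the 12 others, and 1 of them, Mbp, was called lower in edgeR. That of 6 interneuron markers was 34.7 to 69.4 CPM in IF and 120 to 374 CPM in the others. Of these 6 markers only 4 were lower in IF, and none of their 5 tested members was called. All members of both lists had reads in IF, while Mog had none in EDL and Pax2 none in TA, PL and GS. Of 5 microglia markers 0 were lower in IF, and their summed level was 18.2 to 42.5 CPM there and 0 to 40.4 CPM in the 12 others. Whether these differences had a part in the level of Cpne4 was not tested.

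Cpne6 (chr14:56129282-56136269, plus strand, mm9) showed no difference between pools that passed the test. It measured 282, 357 and 489 CPM in TA, 427, 310 and 385 CPM in EDL, 356, 359 and 732 CPM in PL, 310, 520 and 370 CPM in GS and 348, 337 and 318 CPM in IF. PL 3 was the highest library, and each pool overlapped the next in the order of means. Pool means of Cpne6 ran from 334 ± 15.4 CPM in IF to 482 ± 216 CPM in PL (SD, n = 3), a ratio of 1.44. The edgeR test of any difference gave an unadjusted p of 0.612 and an adjusted p of 0.886. Without TMM scaling, GS had the highest mean and TA the lowest, so no order of the pools was drawn for Cpne6.

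Cpne1 and Cpne3, the broadly expressed members, were read in every library at intermediate levels. In mm9 they lie at chr2:155897581-155937696 and chr4:19446401-19497256, both on the minus strand. Cpne1 ran from 18.2 CPM in PL 2 to 143 CPM in PL 1, with a median of 60.2 CPM. Both extremes fell in PL, whose SD of 65.7 CPM was more than 4 times that of any other pool (5.79 to 14.8 CPM). Cpne3 ran from 6.71 CPM in PL 2 to 99.3 CPM in PL 3, again both in PL, and EDL 1 reached 91.4 CPM against 22.2 and 23 CPM in the other EDL libraries. Its 3 TA libraries were close together, at 41.6, 39.2 and 41.7 CPM. Pool means of Cpne1 lay between 50.4 and 92.4 CPM and those of Cpne3 between 36.3 and 49 CPM. Neither passed the test of any difference (edgeR adjusted p = 0.906 and 0.998), and the highest pool of Cpne1 changed with the authors' RPKM and that of Cpne3 also without TMM scaling. Cpne1 overlaps Nfs1 and Rbm12 on the same strand in the table, so reads could be split or shared between these genes.

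Cpne2 (chr8:97056890-97094430, plus strand) had its lowest mean in TA. It measured 0.17, 0.542 and 0 CPM there, from 4 reads in all, and 5.52, 0 and 0 CPM in PL. The other pools were at 22, 7.13 and 6.52 CPM (EDL), 11.5, 9.5 and 6.51 CPM (IF) and 5.55, 11.9 and 3.43 CPM (GS). The TA libraries lay below all 9 libraries of EDL, GS and IF but overlapped PL 2 and PL 3, which had no read. How many of all tested genes had the same split was not computed. TA against the other 4 pools gave a log2 fold change of -4.61 ± 1.67 (SE, edgeR unadjusted p = 0.0125, adjusted p = 0.264), so the difference did not pass, and 0.418% of genes were called in that comparison. Without PL 2 and PL 3 it was -5.01 with an edgeR adjusted p of 0.0473, and DESeq2 gave -4.74 with an adjusted p of 0.0125. Without PL 1 the value was -2.95 with an edgeR adjusted p of 1, and Cpne2 was then called for any difference and for PL against EDL, GS, IF and the other 4 pools. Cpne4 itself gave -5.60 ± 1.56 for TA against the other 4 pools (edgeR adjusted p = 0.152).

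Cpne8 (chr15:90317913-90509864, minus strand) had its highest mean in EDL, where 1 library stood far above the other 2. EDL measured 107, 17.8 and 12.3 CPM, IF 18.7, 24.9 and 13.7 CPM, PL 5.74, 7.67 and 0 CPM, TA 0.17, 5.6 and 5.98 CPM, and GS 3.65, 0 and 0.49 CPM. All EDL and IF libraries were above all 9 libraries of TA, PL and GS, a grouping seen after the values and not tested. The share of all tested genes with that grouping was not computed. EDL against the other 4 pools gave a log2 fold change of 3.29 ± 0.98 (SE, edgeR unadjusted p = 0.00348, adjusted p = 0.341), with 0.0976% of genes called. Without EDL 1 it was 1.69, with an edgeR adjusted p of 1. For any difference, Cpne8 had an edgeR unadjusted p of 0.0262 and an adjusted p of 0.248, and DESeq2 and the fit with no filter on low counts called it. EDL 1 was also the highest EDL library of Cpne2, Cpne3, Cpne4, Cpne5 and Cpne6. For Cpne9 it was level with EDL 2 (1.62 and 1.58 CPM, 14 reads each), and EDL 3 was the highest for Cpne1 and Cpne7. The share of all tested genes with EDL 1 highest was not computed, so this is not shown to be particular to copines. The EDL libraries as a group had the highest summed fibroblast markers, 83.4 to 208 CPM against 0.319 to 48.8 CPM elsewhere. EDL 1 had the lowest of the EDL values, 83.4 CPM, and the part of these 5 markers in the level of Cpne8 was not tested.

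Cpne5 (chr17:29293495-29374743, minus strand) varied widely within pools. It ran from 0.176 CPM in TA 3 to 61.8 CPM in PL 1. The PL libraries were at 61.8, 2.24 and 6.18 CPM and the GS libraries at 26.9, 3.23 and 28.2 CPM, while IF stayed at 14.6, 20.1 and 20.7 CPM. The 3 TA libraries (12.2, 9.57 and 0.176 CPM) lay below the 3 IF libraries, and the share of all tested genes with that split was not computed. TA against IF did not pass (log2 fold change -1.33 ± 1.25, SE, edgeR adjusted p = 0.821). Nor did TA against the other 4 pools (log2 fold change -1.55 ± 1.09, SE, edgeR adjusted p = 0.637).

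Cpne7 (chr8:125641274-125659083) and Cpne9 (chr6:113232301-113255622), both on the plus strand, were the copines with the fewest reads, 350 and 290 over 15 libraries. Cpne7 was at 3.97, 11.7 and 4.92 CPM in IF and 5.55, 10.4 and 2.77 CPM in GS, and at or below 4.33 CPM in the other 9 libraries, 3 of which had no read. IF against the other 4 pools gave a log2 fold change of 2.26 ± 1.20 and GS gave 2.08 ± 1.21 (SE, edgeR adjusted p = 0.622 and 1), so neither passed. The table places Cpne7 inside the span listed for Galnt2 on the same strand, 4434885 bases long, and the counting of reads in that span is not given in the sources used here. Cpne9 had its highest values in GS, at 4.39, 19.7 and 3.43 CPM, and at or below 3.14 CPM elsewhere. The 3 GS libraries were all above the other 12, as for 0.251% of the tested genes, with a gap of 3.43 against 3.14 CPM. GS against the other 4 pools did not pass (log2 fold change 2.77 ± 1.17, SE, edgeR unadjusted p = 0.0288, adjusted p = 0.759), and the value was 1.54 without GS 2. In this comparison 0.126% of genes were called.

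**Figure D4:**
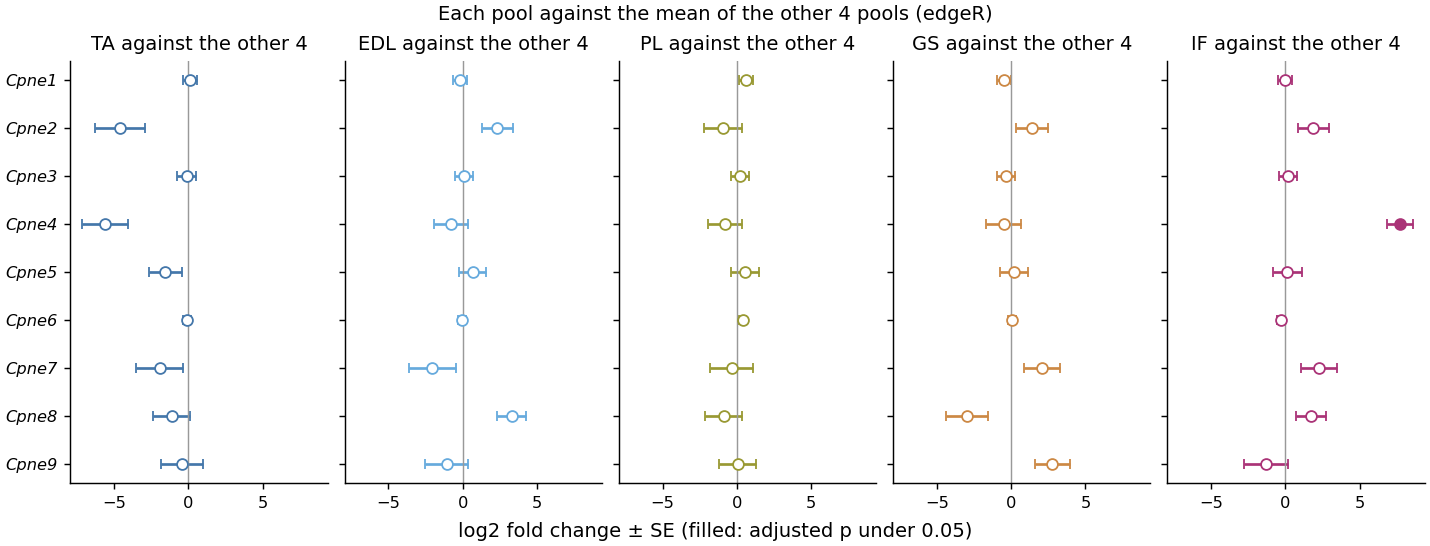
Log2 fold change with SE (horizontal axis) of each copine for each pool set against the other 4, from the edgeR fit. Filled points passed an adjusted p of 0.05, and the 1 filled point is Cpne4 in IF at 7.70.

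Over the 5 comparisons of 1 pool with the other 4, the copines called were 1 of 9 in IF and 0 of 9 in TA, EDL, PL and GS. At an edgeR unadjusted p under 0.05 there were 2 of 9 in TA (Cpne2 and Cpne4), 2 in EDL (Cpne2 and Cpne8), 1 in GS (Cpne9), 1 in IF (Cpne4) and 0 in PL. Over all tested genes the share at that threshold was 12.3% in TA, 6.42% in EDL, 5.82% in GS, 9.38% in IF and 22.4% in PL. PL had the most genes called of all, 4.87%, and no copine was among them in the reported fit. Leaving out PL 1 added Cpne2 and Cpne4 there. DESeq2 called 2 copines in TA and limma voom none. The median log2 fold change of the 9 copines was 0.19 in IF (6 higher, 3 lower), -1.13 in TA (1 higher, 8 lower), -0.08 in EDL, 0.06 in PL and 0.04 in GS. Medians over all tested genes lay between -0.0632 and 0.0631. Between the 4 leg pools no copine was called in any of the 6 pairs by edgeR in the reported fit. Genes called there were 0.0907% for TA against EDL, 0.23% for TA against PL, 0.0628% for TA against GS, 0.0488% for EDL against PL, 0.0697% for EDL against GS and 0.119% for PL against GS. At an edgeR unadjusted p under 0.05, none of them passing adjustment, were 3 copines for TA against EDL (Cpne2, Cpne4 and Cpne8; 8.65% of all tested genes) and 2 for TA against GS (Cpne2 and Cpne4; 7.14%). There was 1 each for TA against PL (Cpne4; 17.3%), EDL against PL (Cpne8; 15.2%) and EDL against GS (Cpne8; 3.79%), and 0 for PL against GS (15%).

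Libraries of IF varied least among themselves, for the copines as for tested genes in general. The coefficient of variation over 3 libraries was lowest in IF for 7 of the 9 copines, beside 64.8% of 13381 tested genes with reads in every pool. The median coefficient of the copines was 21.5% in IF, 63.4% in GS, 86.4% in TA, 86.6% in EDL and 95.4% in PL. Over all these genes it was 21.2%, 49%, 66.7%, 45.3% and 97.5%. The 2 exceptions were Cpne3, tightest in TA at 3.44%, and Cpne9, tightest in EDL at 86.6%. The 3 libraries of IF, where detection was highest, also had reads of all 9 copines, as did TA 2, EDL 1, EDL 2, PL 1, GS 1 and GS 3. PL 3 had none of Cpne2, Cpne4, Cpne7 and Cpne8.

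The genes whose pattern was most like that of Cpne4 were ranked by Pearson correlation of log2(CPM + 1) over the 15 libraries, given as a description. The first 6 were Myl9 (0.962), Pou3f1 (0.96), Pgr15l (0.957), Art4 (0.955), Crabp2 (0.951) and Reg3b (0.946). Crabp2, which carries retinoic acid in the cytosol, measured 122, 125 and 126 CPM in IF and had 1 read in the 12 other libraries. Reg3b, a secreted lectin, measured 75.6, 116 and 61.8 CPM in IF, with no read in the 12 others. Cpne4 differed from these 2 genes in having 145 reads outside IF. Pou3f1, a POU-domain transcription factor, measured 22.2, 22.7 and 23 CPM in IF and at most 0.731 CPM elsewhere. The table lists Pou3f1 in 2 rows, of which it was counted once here. The values are those of the row more like Cpne4, and the level of the other row is not given here. Myl9, a regulatory light chain of myosin, Pgr15l, a G protein-coupled receptor, and Art4, an ADP-ribosyltransferase family member, were much lower, at 2.44 to 7.23 CPM in IF. The same 6 genes came first with log2(CPM + 5). None of them did with Spearman correlation, where Smarca1 (0.942) and Bbs9 (0.93) led. Spearman correlation uses ranks, so the order of the 12 low libraries counts in it.

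**Figure D5:**
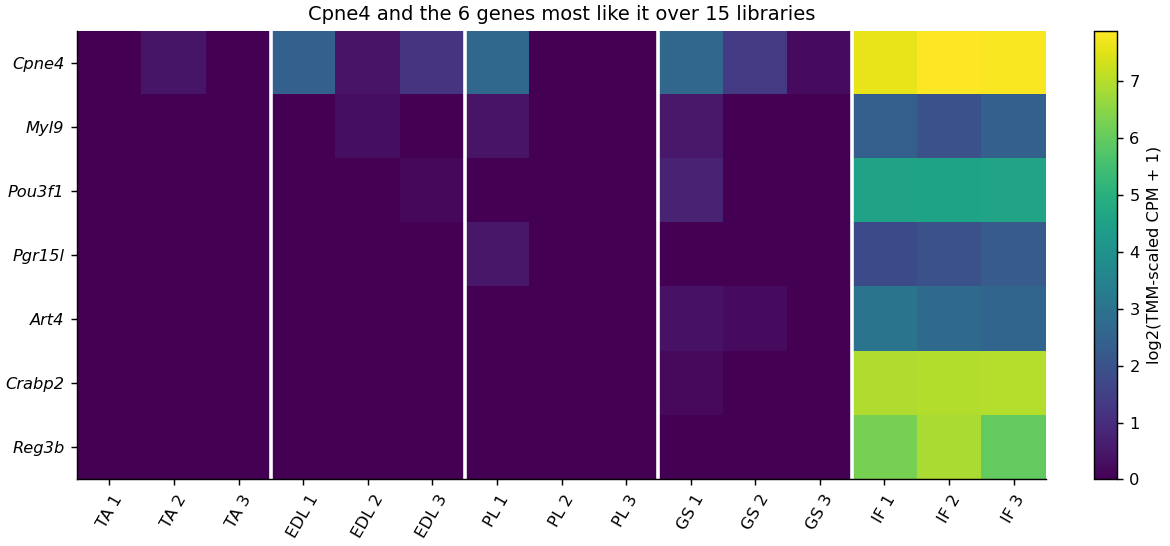
Log2(TMM-scaled CPM + 1) (colour) of Cpne4 and the 6 genes with the highest Pearson correlation to it (rows) in 15 libraries (columns, white lines between pools). All 7 rows are highest in the 3 IF columns, where Myl9, Pgr15l and Art4 (2.44 to 7.23 CPM) lie in the lower part of the colour scale. Cpne4 alone shows reads in most EDL and GS columns.

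The neighbours of Cpne4 on the chromosome did not share its pattern by test. Acpp, a phosphatase gene ending 209.6 kb before Cpne4, averaged 6.36 ± 3.85 CPM in IF and 15.1 ± 17.8 CPM in TA (SD, n = 3), and had no read in GS (edgeR adjusted p = 0.167 for any difference). Mrpl3, a mitochondrial ribosomal protein gene starting 18.7 kb after it, averaged 25.7 ± 3.1 CPM in IF, with 30.1 ± 8.46 CPM in EDL and 27.2 ± 6.44 CPM in GS (edgeR adjusted p = 0.8). The IF libraries of both genes overlapped libraries of other pools.

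Other calcium-binding families were set beside the copines. Of 26 tested C2-domain proteins of vesicle release and membranes, 0 were called in edgeR for any difference, with 7 at an unadjusted p under 0.05. Of 15 tested C2-domain signalling enzymes 0 were called (3 unadjusted), and of 5 tested annexins 0 were called (1 unadjusted). Of 23 tested EF-hand sensors and buffers 1 was called, Cabp7, with 10 unadjusted. Over all tested genes 1.31% were called and 15.5% had an unadjusted p under 0.05. For IF against the other 4 pools, the EF-hand list had 1 member called higher and 2 lower, and the other 3 lists had none. At an edgeR unadjusted p under 0.05 there were 8, 2, 1 and 7 members of the 4 lists, in the order above. Over all tested genes 1.1% were called in this comparison and 9.38% had an unadjusted p under 0.05. The median log2 fold changes in IF were -0.14, -0.32, 0.16 and -0.18 for the 4 lists in this order, beside 0.02 over all tested genes.

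Cabp7, an EF-hand regulator at the Golgi and plasma membrane, was lower in IF, at 69.1, 68.1 and 53.8 CPM. The 12 other libraries lay between 133 and 563 CPM, and the log2 fold change was -2.12 ± 0.38 (SE, edgeR adjusted p = 0.00892). Necab1, an EF-hand protein of neurons, was higher in IF, at 155, 124 and 138 CPM against at most 17.9 CPM elsewhere (log2 fold change 4.21 ± 0.79, edgeR adjusted p = 0.0108). Kcnip1, which modulates A-type potassium channels, was lower in IF, at 115, 125 and 101 CPM against 196 to 395 CPM elsewhere (log2 fold change -1.35 ± 0.27, edgeR adjusted p = 0.0189). The libraries of IF did not overlap the others for these 3 genes. For 1.88% of the tested genes all 3 IF libraries were above the 12 others, and the share with all 3 below was not computed. Necab1 and Kcnip1 were picked out after their values were seen. Among the C2-domain proteins of vesicle release, 2 of 26 were called higher in PL against the other 4 pools, where 4.87% of all genes were called: Syt2 and Syt6 (edgeR adjusted p = 0.0267 and 0.0101). Cabp7 was also called higher there (log2 fold change 1.36 ± 0.30, SE, edgeR adjusted p = 0.0147). PL 1, PL 2 and PL 3 measured 191, 563 and 563 CPM for Cabp7 and 667, 1752 and 907 CPM for Syt2. PL 1 was below TA 1 for Cabp7 (422 CPM) and below TA 2 for Syt2 (823 CPM). The high values were thus those of PL 2 and PL 3, the libraries with the fewest genes detected. Syt6 measured 43.2, 0 and 120 CPM in the 3 PL libraries.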

How the data were processed

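RNA of captured motor neurons was sequenced with single-end reads after Ovation V2 amplification and Nextera tagging, per the labels, which does not mark strand. The authors deposited read counts per gene and RPKM, and per the submitters' processing notes reads were aligned with Bowtie 0.12.9 to mm9. For the tool that counted reads and its annotation, nothing was given in the sources used here. Lists deposited by the authors hold a ratio and p-values, per the submitters' processing notes from DESeq. Some deposited count columns held cells below 0 (16 cells, 4 genes), and these genes were left out. Another 16357 genes had no read.

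Tests used edgeR 4.0.16 (R 4.3.3): filterByExpr, TMM, glmQLFit and glmQLFTest with 1 coefficient per pool, threshold 0.05, SE being the fold on the log2 scale divided by the root of F. The common dispersion was 0.789. The fit was checked on simulated counts. These had the same dispersion for every gene and pool, so the check does not cover spread that differs between pools. DESeq2 1.42.0, limma 3.58.1, other scalings and filters, left-out libraries and a replicate block were alternatives. The 9 copines, all named, the 6 most similar genes (clone and model names left out), the neighbours with a mean of at least 1 CPM, up to 3 called members per calcium list and the marker lists were chosen with earlier results of these data known. Promoter windows are RefSeq's. A planned comparison of copine protein sequences was not run. A listed oligodendrocyte marker is not reported here.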

Additional observations from a re-analysis of the deposited data

How the results depend on the processing

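Cpne4 was called for any difference among the pools and for IF against the other 4 pools in every alternative run, with a log2 fold change of 7.56 to 9.39 for the latter when 1 library was left out. Copines called moved as follows, the cause not tested. TA against the others: 2 with DESeq2, 1 with no filter and 2 without PL replicates 2 and 3. EDL against the others: 1 with no filter. PL against the others: 0 to 2 with 1 library left out. Any difference: 2 with DESeq2, limma voom or no filter, and 1 to 2 with 1 library left out. TA against EDL: 1 with DESeq2. TA against PL: 1 with no filter. TA against IF: 2 with DESeq2, limma voom or without PL replicates 2 and 3, and 0 to 1 with 1 library left out. EDL against PL and PL against GS: 0 to 1 with 1 library left out. EDL against IF: 1 with DESeq2, limma voom, no filter, the replicate block, without PL replicates 2 and 3 or with only the 2 pools in the fit, and 0 to 1 with 1 library left out. PL against IF: 0 without PL replicates 2 and 3 (PL 1 then assumed to vary like the other pools) or with only the 2 pools in the fit, and 0 to 2 with 1 library left out. GS against IF: 1 with DESeq2, limma voom, no filter, without PL replicates 2 and 3 or with only the 2 pools in the fit, and 0 to 1 with 1 library left out. Genes called for any difference, 188, became 1163 with DESeq2, 1425 with no filter, 95 with the replicate block and 66 (without IF 2) to 1211 (without PL 1) with 1 library left out. For IF against the others, 158 became 249, 278 (limma voom), 514, 96 with the replicate block and 31 (without IF 3) to 333 (without PL 1). The labels do not say whether equal replicate numbers mark shared animals or days. Deviations from the pool mean had a median correlation of 0.00265 between same-numbered libraries of different pools. The highest correlation, 0.128, was of a same-numbered pair, and 4 of 15 libraries correlated best with their own number. Such values cannot show whether the libraries were paired. Members with few reads are limited by counting: Cpne7 had none in TA 1, TA 3 and PL 3, and Cpne9 none in EDL 3 and PL 2. Without TMM scaling or in the authors' RPKM, Cpne4 in IF was 98.7 and 100 times its highest other pool.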
